A study of Homo sapiens with 9 samples.

Results

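The genes described here encode 10 subunits of the anaphase-promoting complex, chosen by symbol from the 26485 genes of the deposited count table and read in all 9 libraries. They are ANAPC1, ANAPC4 and ANAPC5 of the platform, ANAPC2, ANAPC11 and ANAPC10 of the catalytic part, and CDC27, CDC23, CDC16 and ANAPC7 of the tetratricopeptide repeat (TPR) arms. All 10 were found and all 10 passed the filter on low counts that left 21994 genes for testing. The libraries hold poly(A)-selected RNA of HEK293, a line derived from human embryonic kidney, in 3 genotypes with 3 libraries each. Addback cells are UBE3D knockout cells in which UBE3D was put back, KO cells carry a CRISPR/Cas9 knockout of UBE3D, and WT cells are wild-type HEK293. The labels mark every sample as pooled, do not say that a group's libraries are separate cultures, and do not say whether the KO line is 1 clone or what drives UBE3D in addback cells. The p-values therefore measure the spread between libraries, which may be technical. The study looked at gene expression and at transcription past gene ends when UBE3D is missing.

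The anaphase-promoting complex is a ubiquitin ligase of dividing cells. Joined by a coactivator, CDC20 or FZR1, it marks securin and the mitotic cyclins for the proteasome, so that sister chromatids separate and the cell leaves mitosis. Its cullin-like subunit ANAPC2 and RING subunit ANAPC11 bring in the ubiquitin-conjugating enzymes UBE2C and UBE2S, ANAPC10 helps to hold the substrate, the TPR subunits form arms that dock the coactivator, and the platform joins these parts. UBE3D, the gene removed here, encodes a ubiquitin ligase first described as a protein that binds UBE2C.

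The promoters of ANAPC2, ANAPC7 and CDC23 are shown because their calls between KO and WT, given further on, did not hang on any single library. Each runs from 250 bases before to 50 bases after the RefSeq start (GRCh38.p14) and is written in the direction of the gene, all 3 on the minus strand, at chr9:137188511-137188810, chr12:110403659-110403958 and chr5:138213274-138213573. Capitals mark the motifs found.
ANAPC2: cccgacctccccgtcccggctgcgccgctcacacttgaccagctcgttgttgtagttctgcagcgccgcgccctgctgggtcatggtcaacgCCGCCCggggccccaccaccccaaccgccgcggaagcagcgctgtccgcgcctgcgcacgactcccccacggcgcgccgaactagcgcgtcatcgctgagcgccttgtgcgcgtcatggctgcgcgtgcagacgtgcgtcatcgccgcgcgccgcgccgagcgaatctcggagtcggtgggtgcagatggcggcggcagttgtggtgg
ANAPC7: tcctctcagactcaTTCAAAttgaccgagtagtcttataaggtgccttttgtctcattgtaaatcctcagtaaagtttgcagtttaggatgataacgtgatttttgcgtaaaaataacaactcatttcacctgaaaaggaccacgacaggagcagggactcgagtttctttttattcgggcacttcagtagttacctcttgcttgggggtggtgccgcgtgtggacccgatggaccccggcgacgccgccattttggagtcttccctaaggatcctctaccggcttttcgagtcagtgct
CDC23: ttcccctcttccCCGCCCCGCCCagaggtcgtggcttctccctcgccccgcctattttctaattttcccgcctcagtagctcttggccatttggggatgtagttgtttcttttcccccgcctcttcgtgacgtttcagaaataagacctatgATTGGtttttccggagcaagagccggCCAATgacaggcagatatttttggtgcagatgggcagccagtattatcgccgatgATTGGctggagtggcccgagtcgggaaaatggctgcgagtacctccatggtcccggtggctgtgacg
The ANAPC2 window holds 72.0% G and C and 1 SP1 box (GGGCGG, here on the other strand). The ANAPC7 window holds 47.3% G and C and 1 CHR element (TTTGAA, other strand), a motif known from cell-cycle promoters. The CDC23 window holds 55.3% G and C, 3 CCAAT boxes and 2 SP1 boxes that share a base. All 10 members had at least 1 window, and ANAPC10 had several. A member was counted if any of its windows held the motif, while the shares of all windows count single windows, so they are not on 1 scale. ANAPC10 was counted for GGGCGG and for TTTGAA through different windows. On either strand, CCAAT was found in 5 of the 10 members and in 34.6% of all 35116 windows of that length, GGGCGG in 8 and in 45.0%, CCGGAAG (an ETS site) in 4 and in 10.3%, and TTTGAA in 3 and in 15.2%. The palindromic NRF1 site and AAGATGGC (a YY1 site) were in 0 of the 10, against 1.24% and 2.89% of all windows. A match describes these letters and is not evidence of binding.

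Total counts ran from 23088295 to 37508780 per library. Counts over 581 genes of families restricted to other tissues, such as odorant receptors, gave each library a background per kilobase of coding sequence, estimated at 2.79 to 11.7% of the library in addback, 0% in KO and 2.99 to 14.5% in WT. At least 1 count was seen for 95.5 to 96.2% of that set in every addback and WT library, against 14.3 to 17.2% in the KO libraries. Since this background moves with genotype, libraries were scaled with TMM factors from 7526 low-background genes, those with an estimated background of at most 10% of their mean. With factors from all tested genes the median fold of all tested genes moved by 0.34 (log2) in KO against WT, by -0.32 for addback against KO and by 0.03 for addback against WT. The 8 HEK293 markers summed to 1659 to 1747 scaled CPM (counts relative to the scaled library total) in addback, 1865 to 2033 in KO and 1808 to 1883 in WT, and none was at 0. Of these 8, 3 were called higher and 4 lower in KO against WT, with IRS4 at -1.97 and VIM at 1.06 on the log2 scale, against 4 and 2 scaled over all genes. The 11 markers of other cell types summed to 70.3 to 142 scaled CPM in addback, 43.5 to 51.8 in KO and 58.5 to 168 in WT, none of them at 0 throughout a group, and 10 of 11 were called lower in KO against WT, 3 of them also with background subtracted. The part of the background and of these markers in the members' differences was tested only as far as the background-subtracted values below go.

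UBE3D itself stood at 3354, 3319 and 2755 scaled CPM in the addback libraries, at 13.2, 15.7 and 14.4 in KO and at 19.5, 21.3 and 26.4 in WT. The addback libraries are far above the others, and each KO library lies below each WT library. UBE3D was higher in addback than in KO by 7.76 ± 0.14 (log2 fold ± SE, edgeR quasi-likelihood test). Its fold in KO against WT was -0.62 ± 0.13 with a Benjamini-Hochberg adjusted p of 0.00394, and -0.28 with an adjusted p of 0.142 when libraries were scaled over all genes. UBE3D RNA thus separated KO from WT past the threshold under the first scaling and not under the second.

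Between KO and WT, 4 of the 10 subunit genes were called and 6 were not. ANAPC7 and CDC23, both of the TPR arms, were higher in KO, and ANAPC2 and ANAPC4 were lower under the low-background scaling by edgeR at an adjusted p under 0.05. Scaled over all genes, 5 members were called higher (ANAPC1, ANAPC5, ANAPC7, ANAPC10 and CDC23) and 0 lower, with 7 and 0 at an unadjusted p under 0.05 and 6 and 0 called by DESeq2, so ANAPC7 and CDC23 kept their call and ANAPC2 and ANAPC4 lost theirs. Of all tested genes, 9.62% were called higher and 52.4% lower in this comparison (62.0% in all), and of the low-background genes alone 23.8% were higher and 26.0% lower, so 2 and 2 of 10 members is near the share among low-background genes. Scaled over all genes, 24.2% of tested genes were higher and 37.4% lower, and of the low-background genes 57.1% and 2.98%, so 5 of 10 higher is near that share as well. ANAPC4 and ANAPC10 are not low-background genes, so these counts of 10 are not on quite the same base. Of the 8 low-background members, ANAPC7 and CDC23 were higher and ANAPC2 lower under the low-background scaling. Over all genes, ANAPC1, ANAPC5, ANAPC7 and CDC23 of these 8 were higher. With background subtracted, ANAPC7 and CDC23 were higher and ANAPC2 and ANAPC11 lower, where 10.2% of tested genes were higher and 26.1% lower. The members' median log2 fold was -0.07, against -0.01 over the low-background genes and -0.47 over all tested genes. In scaled CPM, the KO and WT ranges did not overlap for 6 members, 2 of them higher and 4 lower in KO, where 12.2% of all tested genes were higher and 58.5% lower without overlap, and 27.3% and 31.2% of low-background genes. Whether fewer cells of a kind or less RNA per cell lies behind a difference cannot be told apart in such bulk RNA.

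**Figure D1:**
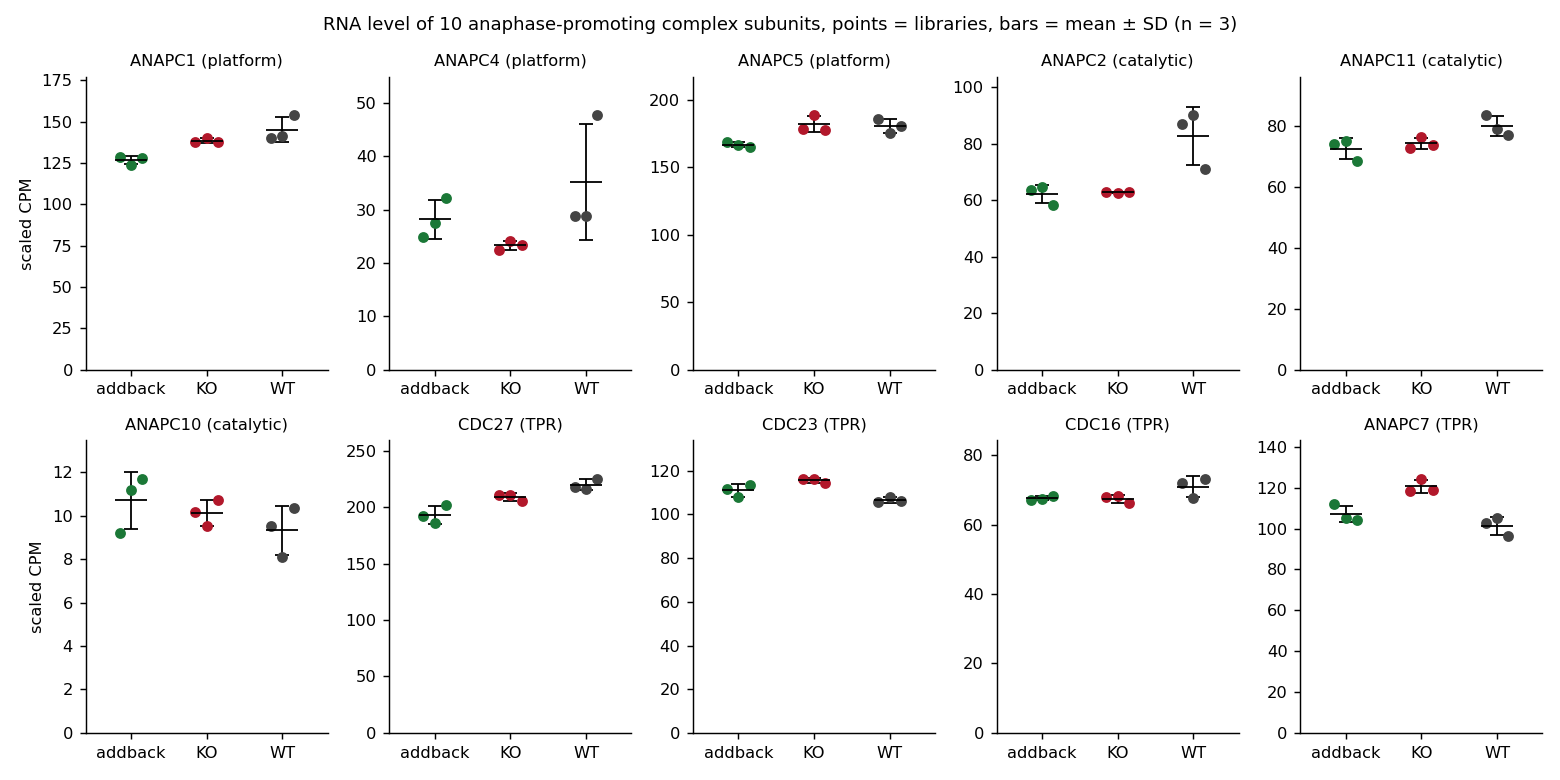
Scaled CPM (y axis, from 0) of each of the 10 subunits in the addback, KO and WT libraries, 1 point per library with the group mean and SD. ANAPC7 sits above WT in all 3 KO libraries, ANAPC2 sits below WT in all 3 KO and all 3 addback libraries, and WT replicate 3 stands apart for ANAPC4; ANAPC2 and ANAPC4 are not called in KO against WT under scaling over all genes.

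ANAPC7, a TPR subunit at the tip of the coactivator-binding arm (chr12:110372900-110403730, minus strand, hg38), had 119, 124 and 119 scaled CPM in KO and 103, 105 and 96.4 in WT. Every KO library lay above every WT library. The log2 fold was 0.25 ± 0.04 (edgeR, adjusted p 0.00196), 0.24 with the estimated background subtracted (adjusted p 0.0044) and 0.58 scaled over all genes (adjusted p 0.0021). Leaving out any single library gave 0.22 to 0.28. CDC23, the TPR subunit of the arm's inner part (chr5:138187648-138213343, minus strand), had 116, 116 and 114 scaled CPM in KO and 106, 108 and 106 in WT. These groups did not overlap either, though the gap is small. CDC23 was 0.12 ± 0.03 higher on the log2 scale (edgeR, adjusted p 0.00974), 0.10 with background subtracted (adjusted p 0.0295) and 0.45 scaled over all genes (adjusted p 0.00376).

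The other TPR subunits were not called between KO and WT. CDC27, which binds the coactivator's tail (chr17:47117697-47189312, minus strand), had 211, 211 and 205 scaled CPM in KO and 218, 216 and 225 in WT. Its fold was -0.07 ± 0.04 (edgeR, adjusted p 0.111) and took the opposite sign, 0.26, scaled over all genes (adjusted p 0.0561). CDC16, a further TPR subunit (chr13:114234887-114272675, plus strand), had 68.0, 68.3 and 66.1 scaled CPM in KO and 72.0, 67.6 and 73.3 in WT, with overlapping groups. Its fold was -0.07 ± 0.04 (edgeR, adjusted p 0.135), 0.26 scaled over all genes (adjusted p 0.0521) and -0.11 without WT replicate 2, where it was called (adjusted p 0.0402).

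Of the catalytic subunits, ANAPC2 was called. This cullin-like subunit (chr9:137174784-137188605, minus strand) had 63.0, 62.7 and 62.9 scaled CPM in KO and 87.2, 90.1 and 71.1 in WT. The KO libraries nearly coincided, and WT replicate 3, the library with the largest background share, was nearest to them. The fold was -0.40 ± 0.08 (edgeR, adjusted p 0.00342), -0.37 with background subtracted (adjusted p 0.0267), and -0.07 scaled over all genes, where it was not called (adjusted p 0.676). ANAPC11, the RING subunit (chr17:81890790-81900533, plus strand), had 72.5, 76.2 and 73.7 scaled CPM in KO and 83.4, 79.0 and 76.9 in WT. Its groups lay apart by a small gap, with a fold of -0.11 ± 0.05 that was not called (edgeR, adjusted p 0.0795), was called with background subtracted (-0.15, adjusted p 0.021), and was 0.22 scaled over all genes (adjusted p 0.135). ANAPC10, the substrate-binding partner of the coactivator (chr4:144994575-145098541, minus strand), had 10.2, 9.52 and 10.7 scaled CPM in KO and 9.54, 8.08 and 10.3 in WT, with overlapping groups and a fold of 0.12 ± 0.18 (edgeR, adjusted p 0.572; 0.46 and 0.0473 scaled over all genes). The estimated background made up 5.60 to 27.0% of ANAPC10's counts in addback and WT libraries.

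Of the platform subunits, ANAPC4 was called between KO and WT, and ANAPC1 and ANAPC5 were not. ANAPC4 (chr4:25377226-25418498, plus strand) had 22.4, 24.1 and 23.4 scaled CPM in KO and 28.8, 28.9 and 47.7 in WT. WT replicate 3 alone stands far out. Of its 1066 ANAPC4 counts, 235 (22.1%) were estimated background, a share near the 20.5% of WT replicate 2. The background made up 7.20 to 30.7% of this gene's counts over the addback and WT libraries. The fold was -0.59 ± 0.19 (edgeR, adjusted p 0.0243), -0.40 with background subtracted (adjusted p 0.116) and -0.23 scaled over all genes (adjusted p 0.183). The call was also lost without KO replicate 1 (adjusted p 0.0711), KO replicate 2 (0.0570) or KO replicate 3 (0.0621). It was kept with the replicate number as a block (edgeR, adjusted p 0.00495). With only replicate 1 of addback and WT the ANAPC4 fold was -0.30. ANAPC1 (chr2:111767637-111884164, minus strand), the largest platform subunit, had 138, 140.2 and 137 scaled CPM in KO and 140.2, 141 and 154 in WT, a fold of -0.07 ± 0.04 (edgeR, adjusted p 0.166) that was 0.27 and called when scaled over all genes (adjusted p 0.0411). ANAPC5 (chr12:121308245-121354209, minus strand) had 179, 188 and 178 scaled CPM in KO and 185, 175 and 180.4 in WT, a fold of 0.01 ± 0.03 (edgeR, adjusted p 0.794; 0.34 and 0.0288 scaled over all genes). ANAPC1P1, a pseudogene copy of ANAPC1, had 36 to 116 counts in addback, 7 to 18 in KO and 48 to 204 in WT, and how reads were shared between copies is not given in the sources used here.

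**Figure D2:**
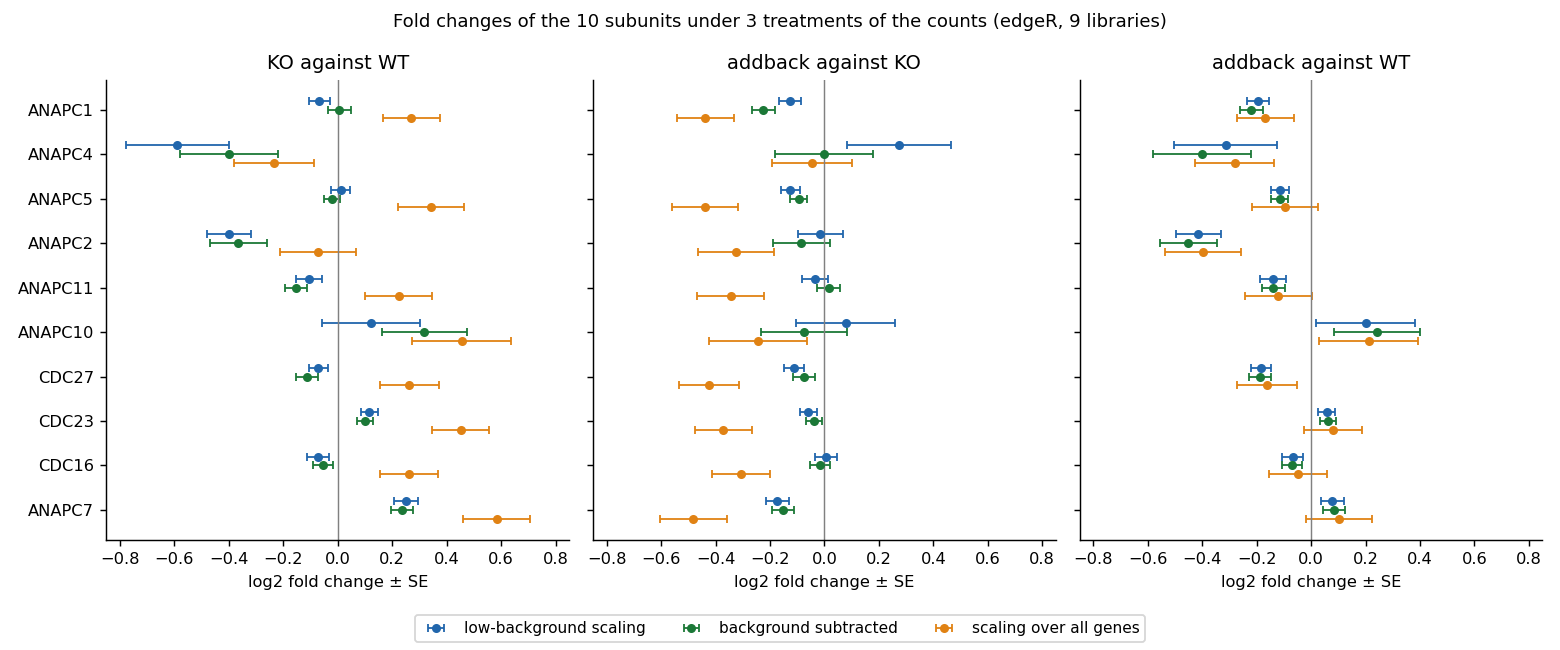
Log2 fold change ± SE (x axis, same range in each panel) of the 10 subunits for KO against WT, for addback against KO and for addback against WT, with libraries scaled over low-background genes, with the background also subtracted, or scaled over all tested genes. Scaling over all genes moves the first comparison up by 0.34 and the second down by 0.32 at the median gene, so several subunits change sign. ANAPC7 and CDC23 stay above 0 in KO against WT and below 0 in addback against KO.

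ANAPC2 lies on chromosome 9, and its fold resembled that of the genes around it. The 291 low-background genes of that chromosome had a median log2 fold of -0.45 in KO against WT and -0.41 in addback against WT, the lowest of 23 chromosomes in both, and 0.03 in addback against KO. Chromosome 7 came next at -0.21 in both comparisons with WT. Under the low-background scaling, of the 290 low-background genes there other than ANAPC2, 269 were called lower and 2 higher in KO against WT, and 230 lower and 4 higher in addback against WT, against 26.0% lower and 11.6% lower among all low-background genes. The ANAPC2 fold exceeded 58.6% of theirs in KO against WT. Within 5 megabases of ANAPC2, 44 of 51 such genes were called lower in KO against WT and 0 higher. SSNA1, which runs the other way and starts 3 bases from the ANAPC2 start, had -0.40 ± 0.08 in KO against WT (edgeR, adjusted p 0.00344), -0.00 between addback and KO, and -0.41 between addback and WT (adjusted p 0.0164), values close to those of ANAPC2. SSNA1 was not called in these comparisons scaled over all genes, at -0.08, -0.31 and -0.39 (adjusted p 0.681, 0.0974 and 0.316). CDC26, a small subunit outside the 10 that lies on the same chromosome, had -0.29 ± 0.19 in KO against WT and -0.48 ± 0.19 in addback against WT, neither of them called (edgeR, adjusted p 0.198 and 0.185). A change of ANAPC2 alone and one of its whole chromosome cannot be told apart from this gene's value.

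**Figure D3:**
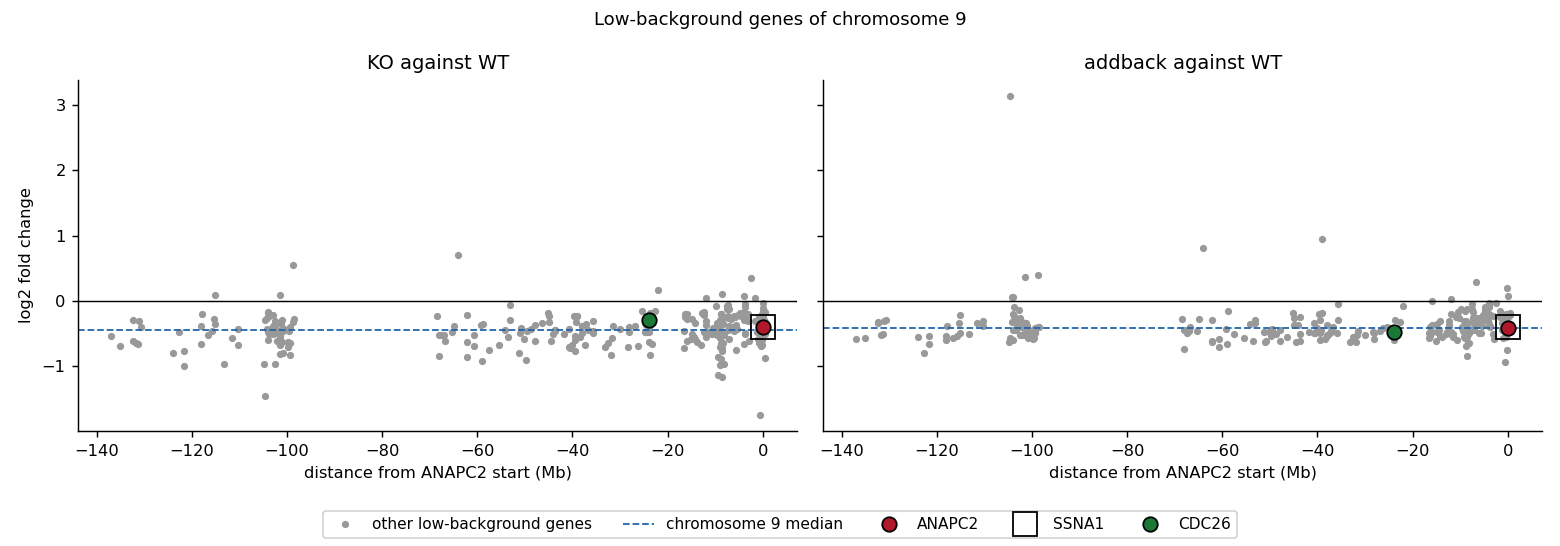
Log2 fold change (y axis) of the low-background genes of chromosome 9 against the distance of their start from that of ANAPC2 (x axis, megabases), in KO against WT and addback against WT. ANAPC2 at -0.40 and -0.41 lies by the chromosome's medians of -0.45 and -0.41, as does SSNA1 (open square), while CDC26 is at -0.29 and -0.48; libraries were scaled over low-background genes, and scaled over all genes ANAPC2 was -0.07 in KO against WT.

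With UBE3D put back, 0 of the 10 subunits were called higher than in KO, with 0 at an unadjusted p under 0.05 by edgeR and 0 called by DESeq2. ANAPC7, ANAPC1, ANAPC5 and CDC27 were lower in addback than in KO, and the other 6 were not called. Of all tested genes, 49.9% were called higher and 7.18% lower (57.1% in all), and of low-background genes 19.3% and 18.7%. Scaled over all genes, 7 of the 10 were lower and 0 higher, where 38.0% of tested genes were higher and 21.8% lower, and of the low-background genes 2.14% and 55.5%, with a median fold of -0.30. With background subtracted, 2 of the 4, ANAPC1 and ANAPC7, were called lower, where 19.7% of tested genes were higher and 5.37% lower. The members' median log2 fold was -0.05. In scaled CPM, addback and KO did not overlap for 6 members, 5 of them with addback below KO and 1, ANAPC4, with addback above it. Without overlap, 61.2% of all tested genes were higher in addback and 11.0% lower, and 28.9% and 26.5% of low-background genes.

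ANAPC7 had 112, 105 and 104 scaled CPM in addback, against 119, 124 and 119 in KO. The addback libraries all lay below KO, and their mean of 107 ± 4.09 (SD, n = 3) fell between the KO mean of 121 ± 3.23 and the WT mean of 101 ± 4.45. The fold was -0.17 ± 0.04 (edgeR, adjusted p 0.00964) and stayed called without any single library (-0.22 to -0.15). ANAPC5, of the platform, had 168, 167 and 165 scaled CPM in addback and 179, 188 and 178 in KO. Its fold was -0.13 ± 0.03 (edgeR, adjusted p 0.0132), -0.09 with background subtracted (adjusted p 0.0557) and -0.44 scaled over all genes (adjusted p 0.0102). ANAPC1 had 128, 124 and 128 scaled CPM in addback and 138, 140.2 and 137 in KO. The ANAPC1 fold of -0.13 ± 0.04 (edgeR, adjusted p 0.0242) was -0.22 with background subtracted (adjusted p 0.0117), and its call was lost without KO replicate 1 (adjusted p 0.0576), KO replicate 2 (0.0724), KO replicate 3 (0.0545) or addback replicate 2 (0.0866). CDC27 had 192, 186 and 202 scaled CPM in addback and 211, 211 and 205 in KO. Its fold of -0.11 ± 0.04 (edgeR, adjusted p 0.0251) lost its call with background subtracted (-0.08, adjusted p 0.203), without KO replicate 1 (adjusted p 0.0777) or 2 (0.0712) and without addback replicate 2 (0.0972).

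The other 6 lay within 0.27 of KO on the log2 scale. ANAPC2 had 63.5, 64.7 and 58.5 scaled CPM in addback, against 63.0, 62.7 and 62.9 in KO, a fold of -0.02 ± 0.08 (edgeR, adjusted p 0.885). Its fold against WT was -0.41 in addback and -0.40 in KO. ANAPC4 had 24.9, 27.6 and 32.1 scaled CPM in addback and 22.4, 24.1 and 23.4 in KO, a fold of 0.27 ± 0.19 (edgeR, adjusted p 0.242) that became -0.00 with background subtracted and was called only without WT replicate 3 (0.27, adjusted p 0.0330). CDC23 had a fold of -0.06 and CDC16 0.00, ANAPC11 -0.03 and ANAPC10 0.08, none of them called by edgeR, and scaled over all genes all 4 were negative, with CDC23, CDC16 and ANAPC11 called lower.

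Against WT, addback cells had 3 members lower and 0 higher, with 5 and 0 at an unadjusted p under 0.05 by edgeR and 3 and 0 called by DESeq2. The 3 were ANAPC2, ANAPC1 and CDC27, where 4.71% of all tested genes were called higher and 4.52% lower (9.23% in all), and 11.0% and 11.6% of low-background genes. Scaled over all genes, 0 of the 10 were called (1 at an unadjusted p under 0.05 by edgeR), where 1.71% of tested genes were higher and 0.868% lower, and of the low-background genes 2.95% and 1.83%. With background subtracted, ANAPC5 joined the 3, where 6.84% of tested genes were higher and 6.78% lower. The groups did not overlap for 5 members, all lower in addback, where 11.1% of all tested genes were higher and 9.82% lower without overlap, and 21.8% and 22.1% of low-background genes. The members' median log2 fold was -0.13. This comparison shares the WT libraries with KO against WT and the addback libraries with addback against KO.

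ANAPC2 had 63.5, 64.7 and 58.5 scaled CPM in addback, against 87.2, 90.1 and 71.1 in WT, and its fold of -0.41 ± 0.08 was called (edgeR, adjusted p 0.0143), but not without addback replicate 3 (adjusted p 0.0539) or scaled over all genes (-0.40, adjusted p 0.238). ANAPC1 averaged 127 ± 2.48 scaled CPM in addback and 145 ± 7.58 in WT (SD, n = 3 each), a fold of -0.19 ± 0.04 (edgeR, adjusted p 0.0168) that was not called without addback replicate 2 (adjusted p 0.0756). CDC27 averaged 193 ± 7.87 scaled CPM in addback and 219.8 ± 4.94 in WT (SD, n = 3 each). Its fold of -0.18 ± 0.04 (edgeR, adjusted p 0.0130) was not called without addback replicate 1 (adjusted p 0.0532) or 2 (0.0543). Against WT, the addback folds of the other members were -0.31 for ANAPC4, -0.11 for ANAPC5, -0.14 for ANAPC11, 0.20 for ANAPC10, 0.06 for CDC23, -0.07 for CDC16 and 0.08 for ANAPC7, none of them called by edgeR. The 10 members together summed to 946 ± 9.18 scaled CPM in addback, 1003.55 ± 15.7 in KO and 1031 ± 11.3 in WT (SD, n = 3 each). These sums hold for the low-background scaling and include the background, estimated at 0 in KO. The members' median log2 fold in KO against WT was -0.07 under this scaling and 0.27 scaled over all genes.

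The proportions among the subunits do not depend on how a library is scaled. The count of ANAPC7 divided by that of ANAPC2 was 1.76, 1.63 and 1.78 in addback, 1.88, 1.98 and 1.89 in KO and 1.18, 1.17 and 1.36 in WT. All addback and KO libraries lay above all WT libraries, and ANAPC2, the divisor, was itself below WT in both under the low-background scaling. ANAPC7 and ANAPC2 had been called in opposite directions between KO and WT in these same libraries. The gap between their KO and WT ratios follows from that choice of pair and is no separate evidence. Relative to the geometric mean of the 10 members in the same library, a measure added after the data were seen, ANAPC7 differed by 0.33 (log2), CDC23 by 0.19 and ANAPC5 by 0.09 in KO minus WT, and ANAPC2 by -0.32 and ANAPC4 by -0.48, each without overlap of the groups. In addback minus WT, ANAPC10 at 0.31, ANAPC7 at 0.18, CDC23 at 0.16 and CDC16 at 0.04 lay above WT and ANAPC1 at -0.09 and CDC27 at -0.08 below it without overlap, while ANAPC2 at -0.30 overlapped it. These are shifts in the mix of subunit counts, and a lower member lifts all others on this measure. The background was not subtracted from these counts. Its estimate was 0% in KO and reached 30.7% of ANAPC4 counts in addback and 27.0% of ANAPC10 counts in WT. The share of all genes without overlap was not computed for this measure.

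**Figure D4:**
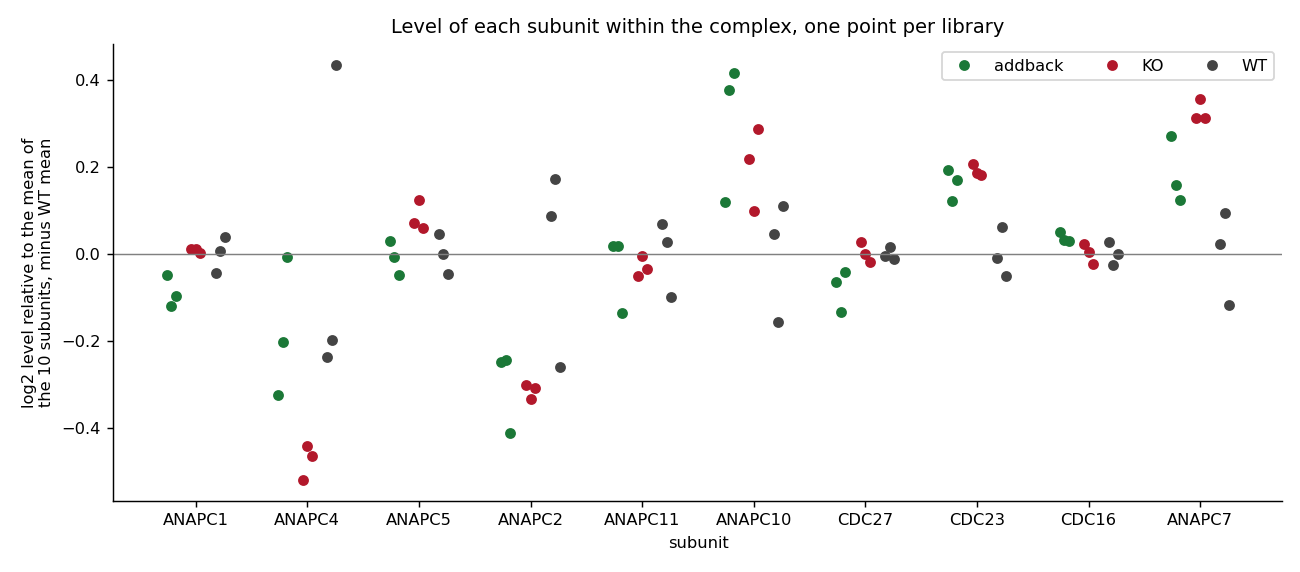
Level of each subunit relative to the geometric mean of the 10 in the same library, minus the WT mean of that measure (y axis, log2), 1 point per library in addback, KO and WT. ANAPC7 and CDC23 lie above WT in all KO and all addback libraries, and ANAPC2 lies below WT in all KO libraries but overlaps it in addback.

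Per kilobase of the deposited gene length, the subunits kept nearly 1 order in every genotype. ANAPC5 was the highest, at 60.9 scaled CPM per kilobase in addback, 66.5 in KO and 66.0 in WT. ANAPC11 followed at 44.9 in addback, 46.0 in KO and 49.4 in WT. At the other end stood ANAPC4 at 10.5 in addback, 8.71 in KO and 13.1 in WT, and ANAPC10 at 5.48 in addback, 5.19 in KO and 4.77 in WT. Between them, CDC27 and CDC23 came next after ANAPC11, in varying order, then CDC16, ANAPC7 and ANAPC2, and then ANAPC1. Neighbours in this order overlapped only for CDC23 with CDC27 and CDC16 with ANAPC7 in addback, and for CDC16 with ANAPC2 and ANAPC2 with ANAPC7 in WT. The median coefficient of variation over the members was 3.94% in addback, 2.16% in KO and 4.28% in WT, the largest being 30.9% for ANAPC4 in WT.

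**Figure D5:**
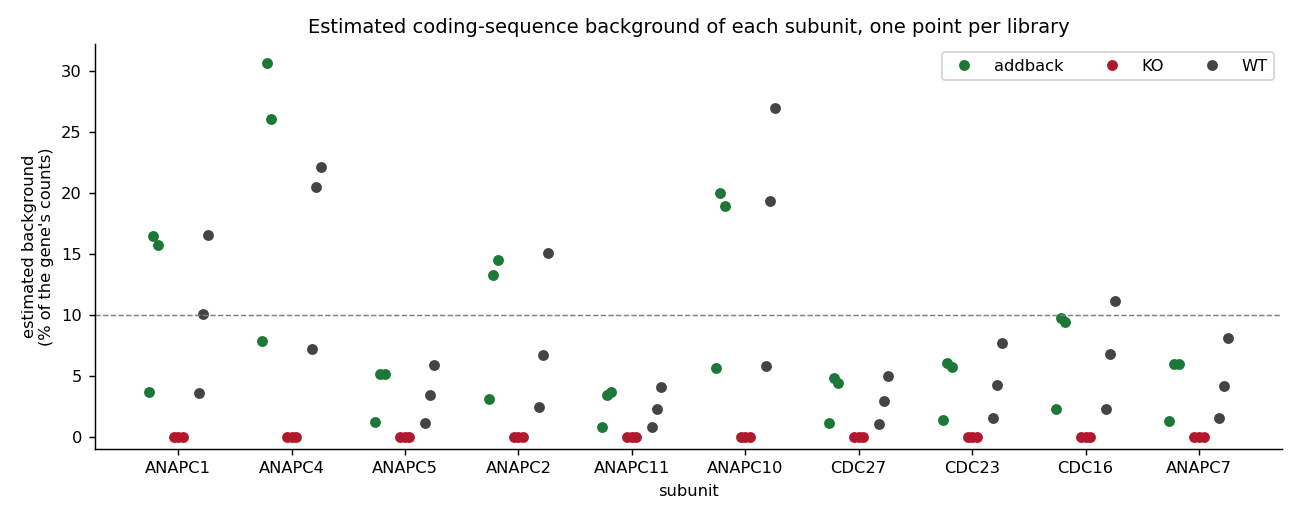
Estimated background as a percentage of each subunit's counts, 1 point per library in addback, KO and WT, with a dashed line at the 10% that a gene's mean may reach to count as low-background. It is 0 in KO, reaches 30.7% for ANAPC4 and 27.0% for ANAPC10, and stays at 4.11% or less for ANAPC11.

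The genes that work with the complex were read in the same fit, against the shares of called genes given above. Of the 4 small subunits outside the 10, 1 was called higher in KO against WT, ANAPC16 at 0.16 ± 0.04 (edgeR, adjusted p 0.00615). ANAPC13 at -0.04, ANAPC15 at -0.23 and CDC26 at -0.29 were not called; scaled over all genes they were at 0.30, 0.12 and 0.04, with ANAPC13 called higher (adjusted p 0.0216). ANAPC16 was lower in addback against KO at -0.13 (adjusted p 0.0151), a call lost with background subtracted (-0.06, adjusted p 0.186), and 0 of the 4 were called in addback against WT. Neither coactivator was called between KO and WT, with CDC20 at 0.03 and FZR1 at -0.19 (edgeR, adjusted p 0.533 and 0.0514). CDC20 was called higher there scaled over all genes, at 0.37 (adjusted p 0.0272) and FZR1 was at 0.14 (adjusted p 0.365). In addback against KO, CDC20, the mitotic coactivator, was lower at -0.16 (adjusted p 0.0192; -0.10 and 0.0924 with background subtracted), and FZR1, that of late mitosis and G1, was higher at 0.23 (adjusted p 0.0253; -0.08 and 0.621 scaled over all genes). Of the 3 ubiquitin-conjugating enzymes, UBE2C, which starts the chain, had 105, 97.0 and 96.3 scaled CPM in KO and 91.9, 87.8 and 83.0 in WT. UBE2C was higher in KO at 0.18 ± 0.05 (edgeR, adjusted p 0.0162; 0.13 and 0.0645 with background subtracted) and lower in addback against KO at -0.18 (adjusted p 0.0193; -0.12 and 0.0971 with background subtracted). UBE2D1, which can also start it, was higher in KO at 0.22 (adjusted p 0.0322; 0.19 and 0.120 with background subtracted). UBE2S, which extends it, was not called at -0.10 (adjusted p 0.327; 0.23 and 0.221 scaled over all genes).

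Of the 8 inhibitors and checkpoint genes, 2 were called higher and 1 lower in KO against WT, against 5 and 1 scaled over all genes and 1 and 1 with background subtracted. TRIP13, an ATPase that takes the checkpoint complex apart, was higher at 0.30 ± 0.05 (edgeR, adjusted p 0.00163), and MAD2L1, a checkpoint protein that holds CDC20, at 0.11 (adjusted p 0.0293), a call lost with background subtracted (0.05, adjusted p 0.316). FBXO43, an inhibitor known from egg cells, was at -3.09 (adjusted p 0.00474), a call that was lost with background subtracted (adjusted p 0.574). FBXO5 at -0.04, BUB1B at 0.03, BUB3 at -0.01, MAD2L1BP at -0.08 and MAD1L1 at -0.16 were not called. Scaled over all genes, FBXO5 at 0.29 (adjusted p 0.0394), BUB1B at 0.36 (0.0143) and BUB3 at 0.32 (0.0484) were called higher, and MAD2L1BP and MAD1L1 were at 0.25 and 0.18 (0.0632 and 0.0989). With background subtracted, BUB3 was called lower at -0.07 (adjusted p 0.0349). In addback against KO, FBXO43 (2.41) and MAD2L1BP (0.15) were higher and MAD2L1 (-0.18), BUB1B (-0.20) and TRIP13 (-0.27) lower. Of these, FBXO43 was at -3.23 (adjusted p 0.258) with background subtracted, the estimated background being 88.1 to 149% of its addback counts. MAD2L1BP lost its call with background subtracted (0.14, adjusted p 0.0890) and was at -0.17 scaled over all genes (adjusted p 0.195), and MAD2L1 lost its call with background subtracted (-0.12, adjusted p 0.0532). Between addback and WT only BUB1B was called, at -0.17 (adjusted p 0.0217), and it was not called scaled over all genes (-0.14, adjusted p 0.863). Of 23 substrates of the complex, 7 were called higher and 5 lower in KO against WT, 2 higher and 13 lower between addback and KO, and 1 higher and 6 lower between addback and WT, with median folds of 0.02, -0.12 and -0.07. The substrates called higher and lower scaled over all genes were 13 and 0 in KO against WT, 0 and 18 between addback and KO, and 0 and 0 between addback and WT. With background subtracted they were 7 and 10, 1 and 8, and 1 and 8. The substrates with the largest called folds in KO against WT were HMMR (-0.48 ± 0.07), CCNB1 (0.22 ± 0.04), BUB1 (-0.21 ± 0.03) and KIFC1 (-0.21 ± 0.04); scaled over all genes, HMMR was at -0.14, BUB1 at 0.12 and KIFC1 at 0.13, none of them called. CCNB1, the mitotic cyclin, had 272, 265 and 271 scaled CPM in KO and 240.2, 233 and 222 in WT. Of 9 cullin-RING ligase genes, the relatives of ANAPC2 and ANAPC11, SKP1 was called higher (0.21) and CUL1 lower (-0.11; 0.23 scaled over all genes) in KO against WT, 1 was higher and 2 were lower between addback and KO, and 0 were higher and 1 was lower between addback and WT, where CUL4B was called higher with the replicate number as a block (0.11 without the block, adjusted p 0.0430 with it). With scaling over all genes, 5 of the 9 were higher in KO against WT and 8 lower between addback and KO, with 0 called the other way and 0 called between addback and WT.

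Some members share sequence with a neighbour, and whether counting used the strand is not given in the sources used here, so reads there cannot be told apart. ABCE1, whose start overlaps that of ANAPC10 by 538 bases on the other strand, was at 0.29 ± 0.04 in KO against WT (edgeR, adjusted p 0.00122) and at -0.25 in addback against KO (adjusted p 0.00237). ALYREF overlaps ANAPC11 by 797 bases and was at 0.08 (adjusted p 0.319; 0.40 and 0.0308 scaled over all genes) in KO against WT. KIF20A overlaps CDC23 by 68 bases and was at 0.05 (adjusted p 0.410; 0.38 and 0.0106 scaled over all genes), and MIR548AR lies inside CDC16 and was at -1.90 (adjusted p 0.0549).

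The authors' deposited tables give the same members in a different scaling. In the authors' deposited gene tables, 6 members were higher and 0 lower in KO against WT, where 21.1% of genes were higher and 41.2% lower, and 0 were higher and 7 lower in addback against KO, where 39.8% were higher and 22.2% lower. ANAPC7 had a log2 fold of 0.46 in KO against WT and -0.40 in addback against KO in the authors' deposited table. The authors' deposited tables of regions downstream of genes, where transcription runs past the end, hold 2 of the members. For ANAPC7 the region is chr12:110366901-110372900, 6000 bases on the minus strand, with 0.52 ± 0.25 in KO against WT (adjusted p 0.0777) and -0.23 ± 0.23 in addback against KO (adjusted p 0.297), by the authors' deposited table and its DESeq2 test. For CDC27 the region is chr17:47104898-47117697, 12800 bases on the minus strand, with 0.20 ± 0.21 (adjusted p 0.479) and 0.08 ± 0.19 (adjusted p 0.744), by the same authors' deposited tables. Neither region passed 0.05, where 49.8% of the authors' regions did in KO against WT and 34.1% in addback against KO; the KO against WT region folds were not shrunken and those of the other tables were, so they are not on 1 scale.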

How the data were processed

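Poly(A) RNA of 9 HEK293 libraries was analysed, grouped by the genotype in the labels. The authors' deposited count table gives raw counts per gene and gene lengths in bases for 26485 genes; its KO.U columns were taken as addback, as the deposited comparison tables name that group KO with UBE3D. The deposited gene and region tables hold base means (a signal of mean normalised coverage), log2 folds with standard errors, p-values with adjusted p-values, and, for regions, a test score and length, per the file headers. Per the submitters' processing notes, cutadapt 1.8.1, STAR 2.5.2b, DESeq2 and hg38 were used; the sources used here do not give the counting program, annotation or strand setting. Library totals ran from 23088295 to 37508780, and of the columns per sample 0 went unused.

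The tests used R 4.3.3 and edgeR 4.0.16 on the counts (filterByExpr by genotype, 21994 genes, glmQLFit and glmQLFTest, robust, genotype only, all 9 libraries), with TMM factors from 7526 low-background genes and Benjamini-Hochberg adjustment over all tested genes; calls are at an adjusted p under 0.05, scaled CPM uses the same factors, and an SE is the log2 fold over the square root of its F statistic. Low-background genes have an estimated background of at most 10% of their mean CPM and coding sequence of at least 10% of their exons, from GENCODE 29 coding lengths of 18601 genes; the background is the median count per coding kilobase over 581 of 598 tissue-restricted genes chosen by symbol. The method was also run on simulated counts. They held no background that differs by genotype, so that run does not bear on the background. Named are all 10 members, all tested genes of the lists of small subunits, coactivators, ubiquitin-conjugating enzymes and inhibitors, the 4 substrates with the largest called folds in KO against WT, the cullin-RING genes called there, and tested genes that overlap a member or start within 1 kilobase of its start. The members, the lists and the rule were chosen with earlier results of these data known.

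Replicate numbers are those of the titles. Residuals of same-numbered libraries correlated at 0.86, 0.56 and 0.72 between addback and WT over all tested genes, and at 0.56, 0.29 and 0.63 over low-background genes. In the comparisons with KO they correlated at -0.06 to 0.02 over all tested genes and at 0.01 to 0.20 over low-background genes. The background per coding kilobase was lowest in replicate 1 of both addback (22.6, 107 and 101) and WT (25.4, 84.6 and 97.0). Whether the numbers mark paired libraries or a shared background level was not tested. Duplicate libraries were looked for and not found (smallest chi-square over its degrees of freedom 1.95). Alternatives were scaling over all genes by TMM or upper quartile, DESeq2 1.42.0, no filter, low-background genes alone, background subtracted once or at 2 times, a replicate block, and leaving out each library.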

Additional observations from a re-analysis of the deposited data

How the results depend on the processing

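Of 30 member folds, 8 kept their direction and call under every alternative named with the methods other than leaving out libraries and 9 changed sign in at least 1; over leaving out each library, 18 kept both and 4 changed sign. The replicate block changed no member call, with 2 members higher and 2 lower in KO against WT, 0 and 4 between addback and KO, and 0 and 3 between addback and WT, and neither did dropping the filter on low counts. Among the genes named with the complex, the block called FZR1 lower in KO against WT (adjusted p 0.0176), ended the call of MAD2L1BP between addback and KO (0.0578) and called MAD1L1 higher there (0.0255). The cause of the changes under the other settings was not tested. Background subtraction rests on an estimate from coding length, and ANAPC10, with the fewest counts of the 10, has a standard error of 0.18.

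Members called in KO against WT were 5 higher and 0 lower with TMM over all genes, 6 and 0 with DESeq2, 1 lower with low-background genes alone, and 1 higher and 1 lower with 2 times the background subtracted. Low-background genes alone held 8 of the 10 members. ANAPC4 and ANAPC10 were not tested there, so ANAPC4 was left out and did not lose its call. The share of all genes called was not computed for DESeq2, for low-background genes alone or at 2 times the background. In addback against KO, lower members were 7 with TMM over all genes and with DESeq2, 2 with background subtracted and 1 at 2 times. In addback against WT they were 0 with TMM over all genes and at 2 times the background, and 5 with low-background genes alone. With only replicate 1 of addback and WT, chosen after seeing the data and assuming these lone libraries to vary as KO does, 1 member was lower between addback and KO and 1 between addback and WT. Leaving out each library gave 1 to 3 lower in KO against WT, 0 to 1 higher and 2 to 4 lower between addback and KO, and 1 to 3 lower in addback against WT.

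All genes called higher in KO against WT numbered 2116, against 5315 with TMM over all genes, 3331 with upper quartile and 5013 with DESeq2. Those lower numbered 11520, against 2034 with low-background genes alone, 5253 with background subtracted and 3177 at 2 times. These settings tested unlike sets of genes: 21994 in the main fit, 7526 with low-background genes alone and 20112 with background subtracted. Within the main fit, 1955 of the 7526 low-background genes were called lower, so most of the step from 11520 to 2034 is the change of gene set. In addback against KO, genes lower numbered 1580, against 4791, 3257 and 5254 with TMM over all genes, upper quartile and DESeq2 and 1050 at 2 times the background. Genes higher there numbered 10968, against 1393 with low-background genes alone, 3969 with background subtracted and 2418 at 2 times. Within the main fit, 1451 of the low-background genes were called higher in addback against KO. In addback against WT, TMM over all genes gave 375 higher and 191 lower, against 1035 and 995. Leaving out each library gave 614 to 1015 higher and 610 to 954 lower there.

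Signs turned as follows. In KO against WT, ANAPC1, ANAPC11, CDC16 and CDC27 were at 0.27, 0.22, 0.26 and 0.26 with TMM over all genes, 0.056, 0.014, 0.049 and 0.051 with upper quartile, and 0.19, 0.14, 0.18 and 0.18 with DESeq2. ANAPC1 was at 0.0054 with background subtracted and 0.087 at 2 times, and ANAPC5 at -0.021 and -0.066, at -0.025 with replicate 1 alone, and between -0.016 and 0.032 over leaving out each library. In addback against KO, ANAPC4, ANAPC10 and CDC16 were at -0.047, -0.24 and -0.31 with TMM over all genes, and at -0.0063, -0.20 and -0.27 with DESeq2; ANAPC10 and CDC16 were at -0.061 and -0.13 with upper quartile. With background subtracted ANAPC4, ANAPC10, CDC16 and ANAPC11 were at -0.0012, -0.075, -0.015 and 0.016, and at 2 times -0.40, -0.27, -0.030 and 0.081. CDC16 was at -0.0034 with low-background genes alone. With replicate 1 alone ANAPC2 was at 0.012, ANAPC10 at -0.14 and CDC16 at -0.0053, and ANAPC10 at -0.046 in addback against WT. Over leaving out each library in addback against KO, ANAPC2 lay between -0.044 and 0.027, ANAPC11 between -0.059 and 0.0052, and CDC16 between -0.0097 and 0.014.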
